A study of Mus musculus with 12 samples.

Results

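The genes described here encode the proteins that choose, license and fire DNA replication origins and that carry the replication fork. They are 40 autosomal mouse genes on a list of names grouped by function, drawn up with earlier results of these data known and with no measured value in its rule, out of 20558 protein-coding genes on chromosomes 1 to 19. All 40 names were found in the RefSeq annotation of GRCm38, on 14 chromosomes. Each was asked 1 question in each group of embryos, namely whether the gene's midpoint lay in a lamina-associated domain (LAD), a stretch of chromatin in contact with the nuclear lamina. At least 1 group had the gene in a LAD for 11 of the 40, and 29 (72.5%, against 58.3% of all protein-coding genes) were outside LADs throughout.

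Replication starts in a fixed order of steps. The origin recognition complex marks an origin, Cdc6 and Cdt1 load the ring-shaped MCM helicase onto it, and geminin keeps Cdt1 from loading it again. The kinase of Cdc7 and Dbf4 then phosphorylates the MCM ring, and Cdc45 and the GINS complex join it to form the running helicase, behind which the polymerases, the clamp PCNA and the fork protection proteins work. RIF1, the protein depleted in this study, brings protein phosphatase 1 to chromatin, where it reverses the phosphorylation made by Cdc7 and Dbf4, and it sets the timing of late-replicating regions. In somatic cells much of that late-replicating chromatin is also lamina-associated.

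Lamina contacts were mapped by DamID, in which the bacterial methyltransferase Dam, fused to lamin B1, methylates adenines in GATC sites near the lamina. There were 4 groups of 3 replicates each: siRif1 8-cell, siControl 8-cell, siRif1 4-cell and siControl 4-cell embryos, all of the genotype (C57BL/6J xCBA) x DBA/2J. Zygotes of every group received an siRNA at 20 µM, against Rif1 or as a control, 17 to 18 h after hCG. Both cells of late 2-cell embryos were then injected, 46 to 48 h after hCG, with Tir1 at 250 ng/µL, membrane-eGFP at 100 ng/µL and AID-Dam-LaminB1 at 20 ng/µL. Auxin (500 µM), which keeps the AID-tagged fusion degraded, was withdrawn at 66 h for 8-cell embryos, collected at 72 to 74 h, and at 54 h for 4-cell embryos, collected at 60 to 62 h. A replicate pooled 16 to 24 blastomeres, from 2 to 3 embryos at the 8-cell and 4 to 6 embryos at the 4-cell stage, and the labels do not say whether replicates came from separate collections.

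The authors' LAD lists, 1 per group, were made from all replicates of the group. They carry no replicate error, no read depth and no RNA, so every difference below is a difference between 2 pooled lists, with no p-value. In such a list, a region at the lamina in fewer blastomeres and a region in weaker contact cannot be told apart. The lists held 738 LADs (42.9% of the mapped span) in siRif1 8-cell, 746 (44.7%) in siControl 8-cell, 644 (43.5%) in siRif1 4-cell and 601 (32.9%) in siControl 4-cell embryos. Rif1 itself lay outside LADs in each list, and the part of the surrounding 1 Mb in LADs was 0.021% in siRif1 and 30.0% in siControl 8-cell embryos, and 0.021% in siRif1 and 40.0% in siControl 4-cell embryos. LADs are given on a 100-kb grid, so a border is known only to 1 grid step.

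The share of these 40 genes in LADs was below that of protein-coding genes as a whole in each of the 4 lists. In siRif1 8-cell embryos 4 of 40 were LAD (10.0%, against 23.8% of all protein-coding genes). In siControl 8-cell embryos 6 were LAD (15.0%, against 25.8%). In siRif1 4-cell embryos 5 were LAD (12.5%, against 23.5%), and in siControl 4-cell embryos 7 were (17.5%, against 24.2%). Over the 4 lists together, 11 genes (27.5%, against 41.7%) lay in a LAD at least once, 10 (25.0%, against 32.2%) were LAD in some lists and not in others, and 1 (2.50%, against 9.47%) was LAD in every list. These shares are a description, since 40 genes are few.

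**Figure D1:**
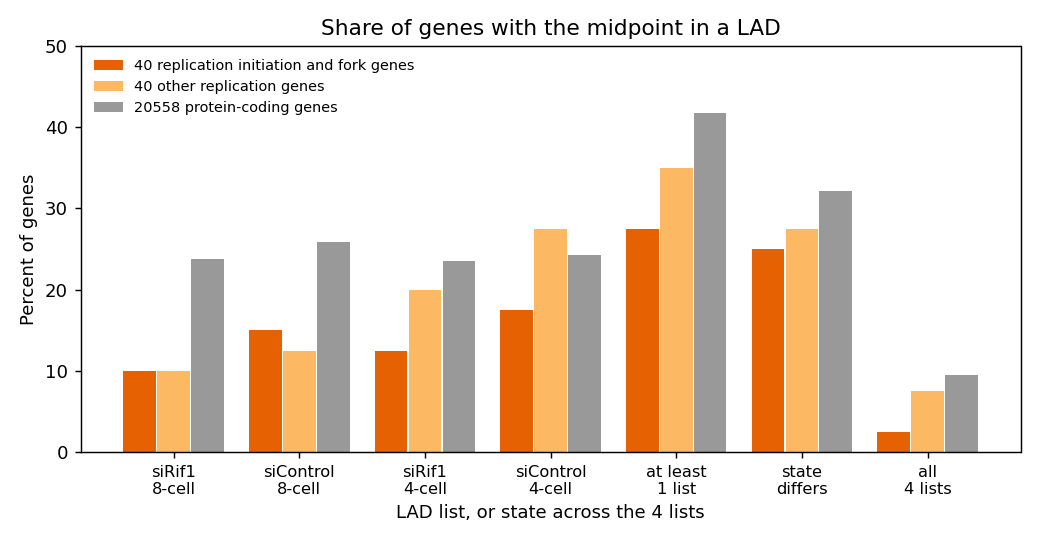
Percent of genes whose midpoint lay in a LAD (vertical axis) for the 40 replication initiation and fork genes, 40 other replication genes and all 20558 protein-coding genes, in each LAD list and, on the right, across the 4 lists. The 40 genes are below all protein-coding genes in every list, most in siRif1 8-cell embryos (10.0% against 23.8%).

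By role, 29 genes were grouped under origin recognition, licensing, the helicase and its activation, with Mcm8, which acts in homologous recombination, counted among them. Of the 29, 11 were LAD in at least 1 list (37.9%, against 41.7% of all protein-coding genes). Of the 11 genes for polymerases, primase, clamp, clamp loader and fork protection, 0 were. Fork genes outside the 40 did lie in LADs, among them the clamp loader gene Rfc3 and the DNA ligase gene Lig1 in every list, so the 0 holds for these 11 alone. The 2 sets also stood in unlike surroundings: a fork gene had a median of 21 other protein-coding genes within 500 kb on either side (range 5 to 55), and an initiation gene had 9 (range 2 to 46), against 15 for all protein-coding genes. The split by role was made with these values known, and the part of gene density in it was not tested.

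**Figure D2:**
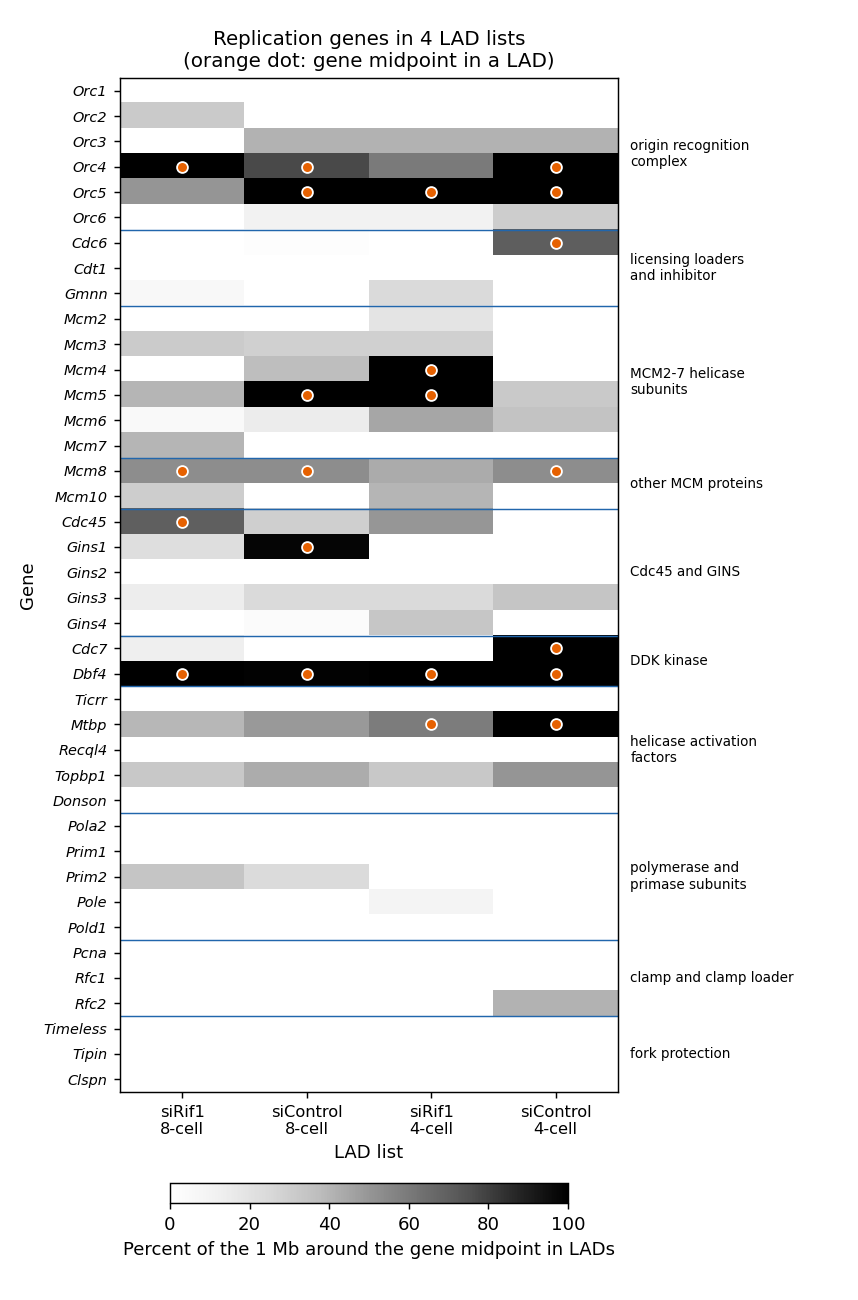
The 40 genes by role (rows) in the 4 LAD lists (columns). Shading is the percent of the 1 Mb around the gene midpoint that lay in LADs, from 0 to 100, and an orange dot marks a midpoint inside a LAD. Dots fall on 11 genes, all above the polymerase, clamp and fork protection rows, and Dbf4 alone has a dot in each column.

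Origin recognition genes differed among themselves and between groups. Of the 6, Orc1, Orc2, Orc3 and Orc6 were outside LADs in every list, with the nearest LAD of any list 90.9 to 904.1 kb from the midpoint. Orc4 and Orc5, which encode subunits of the complex's ATPase ring, were each LAD in 3 of the 4 lists, and the list without them was a siRif1 list in both cases, at different stages.

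Orc4 (gene 26428, chromosome 2, 48902824 to 48952902) was LAD in all groups but siRif1 4-cell embryos. Its local LAD coverage, the percent of the 1 Mb centred on the midpoint that lay in LADs, was 100% in siRif1 8-cell, 77.2% in siControl 8-cell, 60.0% in siRif1 4-cell and 100% in siControl 4-cell embryos. The LAD around it was longest in siRif1 8-cell embryos, at 4 Mb, and measured 1.2 Mb in siControl 8-cell and 3.6 Mb in siControl 4-cell embryos. In siRif1 4-cell embryos the midpoint lay 72.1 kb from the nearest LAD, in an opening of 0.4 Mb (48600001 to 49000000) within what was 1 LAD in siControl 4-cell embryos. That opening held 2 protein-coding genes, Orc4 among them.

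Orc5 (gene 26429, chromosome 5, 22486480 to 22550338) was LAD in all groups but siRif1 8-cell embryos. Local coverage was 50.0% in siRif1 8-cell, 100% in siControl 8-cell, 100% in siRif1 4-cell and 100% in siControl 4-cell embryos. The LAD around it was longest in siRif1 4-cell embryos, at 7.4 Mb, with 1.3 Mb in siControl embryos of that stage and 1.5 Mb in siControl 8-cell embryos. In siRif1 8-cell embryos the gene sat in an opening of 0.5 Mb (22300001 to 22800000), 218 kb from the nearest LAD, with no other protein-coding gene in it.

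The promoter windows of both genes are shown because their start sites lay in the regions whose LAD state differed between siRif1 and siControl. They are from RefSeq on GRCm38.p6, run 5′ to 3′ on the gene's strand from 250 bases before the start to 50 bases from it, and capitals mark matches to an E2F motif, a CCAAT box or GATC, defined with the promoter results. Orc4, the most upstream of 3 starts with a window, lies at chr2:48950185-48950484 on the minus strand and Orc5 at chr5:22550289-22550588 on the minus strand. The Orc4 window lies inside the gene as annotated, which reaches 48952902, so it does not show the sequence before the gene's outermost 5′ end.
Orc4: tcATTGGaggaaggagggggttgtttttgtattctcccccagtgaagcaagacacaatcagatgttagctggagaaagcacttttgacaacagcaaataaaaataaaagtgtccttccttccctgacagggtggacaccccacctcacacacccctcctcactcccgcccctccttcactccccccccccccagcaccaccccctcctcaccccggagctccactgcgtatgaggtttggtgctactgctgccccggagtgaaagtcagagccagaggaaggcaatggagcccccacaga
Orc5: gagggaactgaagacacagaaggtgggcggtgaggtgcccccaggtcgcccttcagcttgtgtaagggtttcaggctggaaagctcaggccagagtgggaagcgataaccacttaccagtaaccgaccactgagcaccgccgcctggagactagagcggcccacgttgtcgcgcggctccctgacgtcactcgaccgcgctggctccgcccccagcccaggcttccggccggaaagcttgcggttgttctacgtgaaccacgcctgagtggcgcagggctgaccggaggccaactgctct
The Orc4 window holds 1 CCAAT box and 4 CpG dinucleotides, and the Orc5 window holds none of the searched motifs and 23 CpG dinucleotides.

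Among the licensing genes, only Cdc6 was LAD, and only in siControl 4-cell embryos. Cdc6 (gene 23834, chromosome 11, 98907709 to 98923942), the ATPase that loads the MCM ring together with Cdt1, had local coverage of 0% in siRif1 8-cell, 1.58% in siControl 8-cell, 0% in siRif1 4-cell and 70.0% in siControl 4-cell embryos. The siControl 4-cell LAD was short, 0.7 Mb (98700001 to 99400000), and dense, with 24 protein-coding genes, among them Top2a, the gene for topoisomerase II alpha. The nearest LAD was 4584 kb from the Cdc6 midpoint in siRif1 8-cell, 484 kb in siControl 8-cell and 2584 kb in siRif1 4-cell embryos. The difference at the 4-cell stage was therefore a whole LAD that was in the siControl list and not in the siRif1 list. The loader Cdt1 and the geminin gene Gmnn, whose product inhibits Cdt1, were outside LADs in every list. Cdt1 had local coverage of 0% in all 4, and Gmnn had 5.69% in siRif1 8-cell, 0% in siControl 8-cell, 24.3% in siRif1 4-cell and 0% in siControl 4-cell embryos.

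The Cdc6 promoter window is shown as the start that lay in the LAD of siControl 4-cell embryos alone, at chr11:98907901-98908200 on the plus strand. It too lies inside the gene as annotated, which begins at 98907709.
Cdc6: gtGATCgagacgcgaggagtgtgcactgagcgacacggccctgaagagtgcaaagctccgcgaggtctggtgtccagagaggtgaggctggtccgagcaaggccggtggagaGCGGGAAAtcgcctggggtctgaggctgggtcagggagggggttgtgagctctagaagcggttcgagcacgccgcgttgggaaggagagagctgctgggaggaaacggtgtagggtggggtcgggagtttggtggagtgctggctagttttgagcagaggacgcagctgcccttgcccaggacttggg
It has 1 E2F motif, 1 GATC site and 19 CpG dinucleotides.

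Of the 6 genes for subunits of the MCM ring, Mcm4 and Mcm5 were LAD in siRif1 4-cell embryos, Mcm5 was LAD in siControl 8-cell embryos, and none was LAD in siRif1 8-cell or siControl 4-cell embryos. Mcm2, Mcm3, Mcm6 and Mcm7 were outside LADs in every list, at 54.4 to 308.9 kb from the nearest LAD of any list.

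Mcm4 (gene 17217, chromosome 16, 15623897 to 15637400) was LAD in siRif1 4-cell embryos alone. Local coverage was 0% in siRif1 8-cell, 36.9% in siControl 8-cell, 100% in siRif1 4-cell and 0% in siControl 4-cell embryos. The siRif1 4-cell LAD was 2.7 Mb long (14100001 to 16800000), and the Mcm4 midpoint was 1169 kb from its nearer border. It bridged 2 LADs of siControl 4-cell embryos, so that 1.8 Mb with 12 protein-coding genes (14600001 to 16400000) belonged to LADs at this stage in siRif1 embryos alone. This was the longest such stretch at any of the 40 genes at that stage.

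Mcm5 (gene 17218, chromosome 8, 75109468 to 75128439) had opposite differences of LAD state at the 2 stages. At the 8-cell stage it was outside LADs in siRif1 and inside in siControl embryos, with local coverage of 40.0% and 100%. At the 4-cell stage it was inside in siRif1 and outside in siControl embryos, with 100% and 31.9%. The midpoint was 219 kb from the nearest LAD in siRif1 8-cell embryos, 981 kb inside a LAD in siControl 8-cell embryos, 581 kb inside in siRif1 4-cell and 181 kb outside in siControl 4-cell embryos. None of these positions is within 1 grid step of a border. Of all protein-coding genes, 453 (2.20%) had opposite differences of state at the 2 stages.

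The other 4 subunits had local coverage of at most 44.6% in every list. Mcm6 had 4.56% in siRif1 8-cell, 14.6% in siControl 8-cell, 44.6% in siRif1 4-cell and 34.6% in siControl 4-cell embryos, and lay 54.4 kb from a LAD in siRif1 4-cell embryos. Mcm7 had 40.0% in siRif1 8-cell embryos, 68.3 kb from a LAD, and 0% in the other 3 groups. Mcm3 had 31.2% in siRif1 8-cell, 28.8% in siControl 8-cell, 28.8% in siRif1 4-cell and 0% in siControl 4-cell embryos. For Mcm2 it was 19.1% in siRif1 4-cell embryos and 0% in the rest. At the 4-cell stage local coverage was thus higher in siRif1 than in siControl embryos at 5 of the 6 genes and equal at 1, while at the 8-cell stage it was higher at 2, lower at 3 and equal at 1. All protein-coding genes had higher coverage in siRif1 in 23.0% of cases at the 4-cell and 22.2% at the 8-cell stage. Over all 40 genes it was higher in siRif1 at 10 and lower at 9 at the 4-cell stage. The roles were grouped with values known, and Mcm6 differed by 1 grid step.

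The Mcm5 promoter window is shown because its start lay in the region with opposite states at the 2 stages, at chr8:75109259-75109558 on the plus strand.
Mcm5: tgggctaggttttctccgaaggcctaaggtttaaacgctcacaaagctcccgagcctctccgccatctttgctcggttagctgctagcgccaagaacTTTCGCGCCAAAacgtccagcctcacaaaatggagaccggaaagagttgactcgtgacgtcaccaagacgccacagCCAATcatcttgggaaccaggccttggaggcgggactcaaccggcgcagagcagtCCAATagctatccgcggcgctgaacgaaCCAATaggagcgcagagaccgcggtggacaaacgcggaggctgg
It holds 2 E2F motifs, which overlap on opposite strands, 3 CCAAT boxes and 25 CpG dinucleotides.

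Mcm8 and Mcm10 are not part of the ring. Mcm8 (gene 66634, chromosome 2, 132816137 to 132844197), which acts with Mcm9 in homologous recombination, was LAD in all groups but siRif1 4-cell embryos. It sat at a border: in the siRif1 8-cell, siControl 8-cell and siControl 4-cell lists the LAD began at 132800001, 30.2 kb from the Mcm8 midpoint, and was 17.3 Mb, 8.6 Mb and 1.2 Mb long in that order. In siRif1 4-cell embryos the nearest LAD began 1 grid step further on, 69.8 kb beyond the midpoint, so that the difference rested on 0.1 Mb. Local coverage differed little, at 53.0% in siRif1 8-cell, 53.0% in siControl 8-cell, 43.0% in siRif1 4-cell and 53.0% in siControl 4-cell embryos. Mcm10, which takes part in helicase activation, was outside LADs in every list, with coverage of 30.2% in siRif1 8-cell, 0% in siControl 8-cell, 40.2% in siRif1 4-cell and 0% in siControl 4-cell embryos. It lay 98.2 kb from a LAD in siRif1 4-cell embryos.

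Cdc45 and Gins1, which encode parts of the running helicase, each lay in a LAD in 1 of the 8-cell lists. Cdc45 (gene 12544, chromosome 16, 18780447 to 18811972) was LAD in siRif1 8-cell embryos alone, 196 kb inside a LAD of 1.6 Mb. Local coverage was 69.6% in siRif1 8-cell, 29.6% in siControl 8-cell, 49.6% in siRif1 4-cell and 0% in siControl 4-cell embryos, higher in siRif1 than in siControl embryos at both stages. In siRif1 4-cell embryos the midpoint was 3.79 kb short of a LAD, and the start of the gene lay inside it. Taken by its start, Cdc45 was therefore LAD in both siRif1 lists and in neither siControl list. By midpoint, 0.963% of all protein-coding genes had that arrangement. The call at the start rests on less than 1 grid step, and by the whole gene Cdc45 was outside LADs in siRif1 4-cell embryos.

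Gins1 (gene 69270, chromosome 2, 150909556 to 150931280) was LAD in siControl 8-cell embryos alone, 479.6 kb inside a LAD of 6.7 Mb. Local coverage was 22.0% in siRif1 8-cell, 98.0% in siControl 8-cell, 0% in siRif1 4-cell and 0% in siControl 4-cell embryos. In siRif1 8-cell embryos it lay in an opening of 1.1 Mb (150100001 to 151200000) with 20 protein-coding genes, which starts where the 17.3-Mb LAD that begins at Mcm8 ends. The other GINS subunits, Gins2, Gins3 and Gins4, were outside LADs in every list, at 160.7 to 1285.2 kb from the nearest. Gins4 had its highest coverage in siRif1 4-cell embryos (33.2%), and Gins3 had its highest in siControl 4-cell embryos (33.9%).

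The Cdc45 promoter window is shown as the start that was LAD in the siRif1 lists alone, at chr16:18811923-18812222 on the minus strand.
Cdc45: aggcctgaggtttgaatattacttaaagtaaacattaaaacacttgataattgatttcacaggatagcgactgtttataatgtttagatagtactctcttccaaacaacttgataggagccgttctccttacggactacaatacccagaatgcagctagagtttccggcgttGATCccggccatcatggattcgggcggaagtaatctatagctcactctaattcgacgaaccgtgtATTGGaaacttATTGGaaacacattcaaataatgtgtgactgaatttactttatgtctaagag
It holds 2 CCAAT boxes, 1 GATC site and 11 CpG dinucleotides, and its GC content of 38.7% was the lowest among the 29 members with a window.

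The 2 subunits of the kinase that RIF1 and its phosphatase oppose were placed differently. Dbf4, the regulatory subunit (gene 27214, chromosome 5, 8396969 to 8422725), was LAD in every group, the only one of the 40 genes to be so. At the 8-cell stage its LAD was 4.9 Mb long in siRif1 and 3.2 Mb in siControl embryos, at the 4-cell stage 2.4 Mb in siRif1 and 1.9 Mb in siControl embryos, and the midpoint was at least 490.2 kb from a border in each. Local coverage was 100% in 3 lists and 99.0% in siControl 8-cell embryos.

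Cdc7, the catalytic subunit (gene 12545, chromosome 5, 106964315 to 106984440), was LAD in siControl 4-cell embryos alone. Local coverage was 12.6% in siRif1 8-cell, 0% in siControl 8-cell, 0% in siRif1 4-cell and 100% in siControl 4-cell embryos. The siControl 4-cell LAD was 2 Mb long (105500001 to 107500000), with the midpoint 526 kb inside. In the siRif1 4-cell list the nearest LAD was 674 kb away, and 1.2 Mb with 9 protein-coding genes (106300001 to 107500000) were LAD in siControl 4-cell embryos alone. In siRif1 minus siControl 4-cell embryos the coverage of Cdc7 was -100 percentage points, the lowest of the 40 genes, and that of Mcm4 was 100, the highest.

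The Cdc7 promoter window is shown because it lay in the 1.2-Mb stretch of siControl 4-cell embryos, the longest at a member to be missing from the siRif1 list of the same stage, the more upstream of 2 annotated starts, at chr5:106964072-106964371 on the plus strand.
Cdc7: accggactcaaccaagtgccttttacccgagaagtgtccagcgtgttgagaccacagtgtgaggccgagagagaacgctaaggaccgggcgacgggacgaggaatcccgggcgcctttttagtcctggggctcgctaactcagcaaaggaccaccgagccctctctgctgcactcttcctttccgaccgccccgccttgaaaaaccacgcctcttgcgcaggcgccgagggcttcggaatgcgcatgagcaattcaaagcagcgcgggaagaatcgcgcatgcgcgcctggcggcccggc
It holds none of the searched motifs and 30 CpG dinucleotides.

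Of the factors that bring Cdc45 and GINS to the MCM ring, only Mtbp was LAD. Mtbp (gene 105837, chromosome 15, 55557404 to 55626423), the partner of the Treslin gene Ticrr, was LAD in both 4-cell lists and in neither 8-cell list. Local coverage was 39.2% in siRif1 8-cell, 49.2% in siControl 8-cell, 59.2% in siRif1 4-cell and 100% in siControl 4-cell embryos. Its midpoint was 108 kb outside a LAD in siRif1 8-cell embryos and 8.09 kb outside in siControl 8-cell embryos. In siRif1 4-cell embryos it lay 91.9 kb inside and in siControl 4-cell embryos 808.1 kb inside, so that 3 of the 4 positions were within about 1 grid step of a border. Topbp1, a scaffold that also activates the checkpoint kinase ATR, was outside LADs but had LADs nearby in each list, with coverage of 32.8% in siRif1 8-cell, 42.8% in siControl 8-cell, 32.8% in siRif1 4-cell and 50.0% in siControl 4-cell embryos. Ticrr, the helicase gene Recql4 and Donson had local coverage of 0% in all 4 lists.

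**Figure D3:**
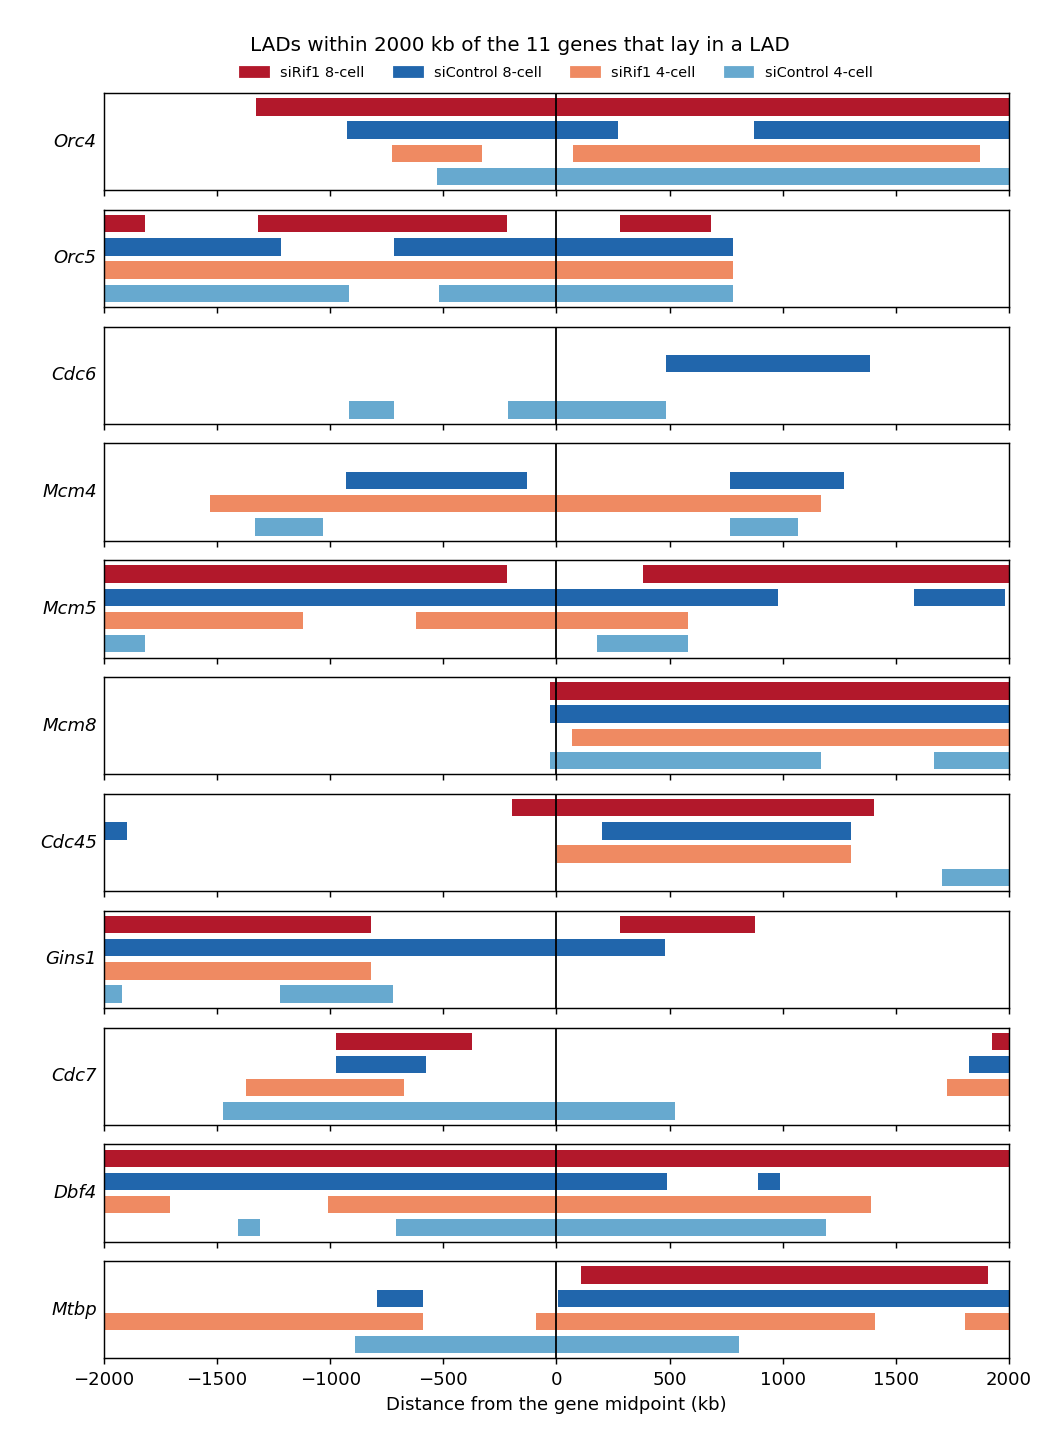
LADs (coloured bars) within 2000 kb of the midpoint (black line, 0 kb) of the 11 genes that lay in a LAD, drawn to scale, with the siRif1 8-cell list at the top of each panel, then siControl 8-cell, siRif1 4-cell and siControl 4-cell. Dbf4 has a bar at 0 kb in each list, Cdc7 and Cdc6 in siControl 4-cell embryos alone, Mcm4 in siRif1 4-cell embryos alone, and at Mcm8 the midpoint is within 100 kb of a border throughout.

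None of the 11 fork genes among the 40 was in a LAD in any group. They comprise the primase and polymerase alpha genes Prim1, Prim2 and Pola2, Pole and Pold1, which encode the catalytic subunits of polymerases epsilon and delta, the clamp gene Pcna and the clamp loader genes Rfc1 and Rfc2. The remaining fork genes are Timeless, Tipin and Clspn, whose products protect the fork and relay the checkpoint signal. Local coverage was 0% in every list at 8 of these 11 genes, against 6 of the 29 initiation genes and 30.5% of all protein-coding genes. The fork genes with coverage above 0% were Prim2 (33.8% in siRif1 8-cell, 23.8% in siControl 8-cell and 0% in both 4-cell groups), Rfc2 (40.9% in siControl 4-cell embryos and 0% in the other 3 groups) and Pole (8.81% in siRif1 4-cell embryos and 0% in the others). Rfc2 was the nearest to a LAD, at 90.5 kb in siControl 4-cell embryos.

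The distances of the 29 genes outside LADs spanned a wide range. The nearest LAD of any list was 54.4 kb from the midpoint at the closest gene, Mcm6, and a median of 412 kb over the 29. After Mcm6 and Mcm7 the closest were Topbp1 (72.2 kb), Rfc2 (90.5 kb) and Orc3 (90.9 kb). The farthest were Clspn (3676 kb), Pold1 (2241 kb) and Recql4 (2093 kb). In all, 6 of the 29 had a LAD within 100 kb, 7 had none within 1000 kb, and 14 had none within the 1-Mb window in any list. Those 14 are 35.0% of the 40 genes, against 30.5% of all protein-coding genes.

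The surroundings of the LAD genes were poorer in genes. The 11 genes that were LAD in a list had a median of 6 other protein-coding genes within 500 kb on either side (range 2 to 34), the 29 others had 16 (range 5 to 55) and all protein-coding genes had 15. Gene length differed less, with medians of 25.8 kb for the 11 and 20.9 kb for the 29, and 17.6 kb for all protein-coding genes. Few of the 40 genes share a neighbourhood: only Mcm8 and Pcna (579 kb apart) and Prim1 and Timeless (219.9 kb apart) lie within 1000 kb of each other, and Pcna had local coverage of 0% in each list while Mcm8 was LAD in 3.

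At the 4-cell stage, the comparison of siRif1 with siControl embryos asks which genes' lamina contact differs when Rif1 is depleted. Mcm4 and Mcm5 were LAD in siRif1 embryos alone (2 of 40, 5.00%, against 7.22% of all protein-coding genes). Orc4, Cdc6, Mcm8 and Cdc7 were LAD in siControl embryos alone (4 of 40, 10.0%, against 7.92%). The 6 genes with unlike states (15.0%) were as common as among all protein-coding genes (15.1%). They stood in stretches of difference of 1.8 Mb (Mcm4), 1.2 Mb (Cdc7), 0.8 Mb (Mcm5), 0.7 Mb (Cdc6), 0.4 Mb (Orc4) and 0.1 Mb (Mcm8). Local coverage was higher in siRif1 embryos at 10 genes (25.0%, against 23.0%) and lower at 9 (22.5%, against 21.9%).

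At the 8-cell stage 4 of 40 genes had unlike states (10.0%, against 16.4% of all protein-coding genes). Cdc45 was LAD in siRif1 embryos alone (2.50%, against 7.18%). Orc5, Mcm5 and Gins1 were LAD in siControl embryos alone (7.50%, against 9.18%). The stretches of difference were 1.1 Mb at Gins1, 0.6 Mb at Mcm5, 0.5 Mb at Orc5 and 0.4 Mb at Cdc45, and at the first 3 they were openings in a siControl LAD that had LADs of the siRif1 list on both sides. Local coverage was higher in siRif1 embryos at 10 genes (25.0%, against 22.2%) and lower at 12 (30.0%, against 27.5%). Mcm5 was the only gene whose state differed between siRif1 and siControl at both stages.

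**Figure D4:**
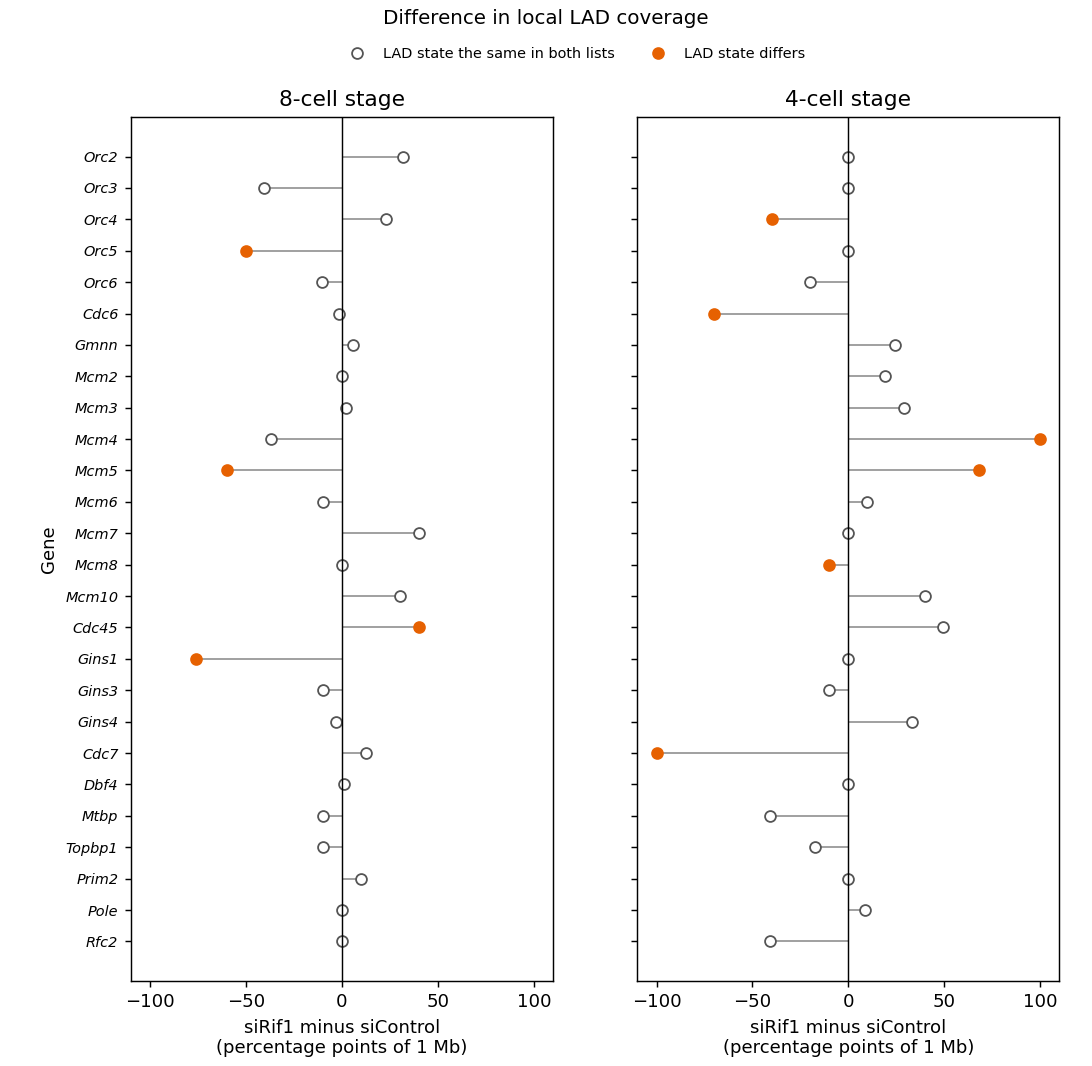
Local LAD coverage in siRif1 minus siControl embryos, in percentage points of the 1 Mb around the gene, at the 8-cell (left) and the 4-cell stage (right), for the 26 genes with a difference at either stage, and the 14 others are at 0 in both. Filled orange points are genes whose LAD state differed; Cdc7 (-100) and Mcm4 (100) are the extremes at the 4-cell stage, and Gins1 (-75.9) is the lowest at the 8-cell stage.

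Between the stages, 5 genes (12.5%, against 20.3% of all protein-coding genes) had unlike states in siControl embryos. Mcm5 and Gins1 were LAD at the 8-cell stage alone (2 of 40, 5.00%, against 10.9%), and Cdc6, Cdc7 and Mtbp were LAD at the 4-cell stage alone (3 of 40, 7.50%, against 9.39%). For the 8-cell stage, local coverage was higher than at the 4-cell stage at 7 genes (17.5%, against 30.4%) and lower at 10 (25.0%, against 23.5%). Although the siControl 8-cell list covers more of the genome, 6 of the 40 genes were in its LADs and 7 in those of the siControl 4-cell list.

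In siRif1 embryos 7 genes (17.5%, against 17.1%) had unlike states at the 2 stages. Orc4, Mcm8 and Cdc45 were LAD at the 8-cell stage alone (3 of 40, 7.50%, against 8.65%), and Orc5, Mcm4, Mcm5 and Mtbp were LAD at the 4-cell stage alone (4 of 40, 10.0%, against 8.41%). The stretch at Mcm4 was the longest, 2.7 Mb, and in siRif1 8-cell embryos the nearest LAD was 2631 kb from the midpoint of that gene. Mtbp was LAD at the 4-cell and not at the 8-cell stage in both treatments. The 4 comparisons share lists, so that they are not independent of each other.

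By their states over the 4 lists, the 10 genes that were LAD in some of them fall into 8 arrangements. Cdc6 and Cdc7 were LAD in siControl 4-cell embryos alone, as were 4.87% of all protein-coding genes. Orc4 and Mcm8 were LAD everywhere except in siRif1 4-cell embryos, as were 1.14% of all genes. The arrangement of Orc5, LAD everywhere except in siRif1 8-cell embryos, is shared by 3.22%. Mtbp, LAD at the 4-cell stage in both treatments, had the state of 2.09% of all genes. The arrangement of Mcm5 was that of 1.29%, and Mcm4 (siRif1 4-cell alone, 1.81%), Cdc45 (siRif1 8-cell alone, 3.78%) and Gins1 (siControl 8-cell alone, 3.68%) were each the only member of theirs.

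Other replication genes were counted by the same rule in a second list of 40, which holds further polymerase and clamp loader subunits, the single-strand binding protein RPA, Okazaki fragment enzymes, cyclins and checkpoint genes. Of these, 4 were LAD in siRif1 8-cell (10.0%, against 23.8% of all protein-coding genes) and 5 in siControl 8-cell embryos (12.5%, against 25.8%). In siRif1 4-cell embryos 8 were LAD (20.0%, against 23.5%), and in siControl 4-cell embryos 11 were (27.5%, above the 24.2% of all protein-coding genes). Rfc3, Lig1 and the topoisomerase gene Top1 were LAD in all 4 lists, and were named after their values were seen. At the 4-cell stage Pole4, Mcmbp and the checkpoint kinase gene Chek1 were LAD in siRif1 embryos alone (3 of 40, 7.50%, against 7.22%). The siControl 4-cell list alone held 6 (15.0%, against 7.92%). They were Rfc4 and Dscc1, which belong to clamp loaders, Ssrp1, a subunit of the histone chaperone FACT, and Top2a. The others were Atr and Etaa1, the checkpoint kinase and 1 of its activators. Chek1 had local coverage of 100% in siRif1 and 0% in siControl 4-cell embryos, whereas Atr had 49.5% in siRif1 and 69.5% in siControl embryos, with its midpoint 5.41 kb short of the nearest LAD of the siRif1 4-cell list. The stretches of difference were 1.8 Mb at Chek1, 0.7 Mb at Top2a and Etaa1 and 0.5 Mb at Dscc1. They were 0.2 Mb at Pole4, Rfc4 and Atr and 0.1 Mb at Mcmbp and Ssrp1.

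At the 8-cell stage Rpa3, the gene of the smallest RPA subunit, was LAD in siRif1 embryos alone (2.50%, against 7.18% of all protein-coding genes). Mcm9 and Chek1 were LAD in siControl embryos alone (5.00%, against 9.18%). By midpoint, Chek1 thus had the same arrangement as Mcm5, LAD in siControl 8-cell and siRif1 4-cell embryos and in no other list. In siRif1 8-cell embryos, however, the Chek1 midpoint was 17.6 kb short of a LAD, less than 1 grid step. That of Mcm5 was 219 kb from the nearest LAD. Mcm9, the partner of Mcm8, was LAD in siControl 8-cell, siRif1 4-cell and siControl 4-cell embryos, the arrangement of Orc5. Its midpoint was 16.8 kb short of a LAD in siRif1 8-cell embryos, again less than 1 grid step, against 218 kb at Orc5. In 2 places genes of both sets shared a domain: Cdc6 and Top2a lay in the same 0.7-Mb LAD of siControl 4-cell embryos, and Mtbp and Dscc1 in the same 1.7-Mb LAD of that group.

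Some short sequence features were more common in the promoters of these genes than in those of all protein-coding genes. RefSeq promoter windows of 300 bases were matched for 29 of the genes, 1 per gene, and for 16457 protein-coding genes in all. Where a gene had several windows the most upstream was used, which can lie inside the annotated gene, as at Orc4 and Cdc6. Both strands were searched for the E2F motif in the 4 forms TTTGGCGC, TTTCCCGC, TTTGCCGC and TTTCGCGC, the last of which can overlap another form on the opposite strand, for the CCAAT box as ATTGG, and for GATC, the site that Dam methylates. An E2F motif was in 13 of the 29 windows (44.8%), against 2.95% of all windows. A CCAAT box was in 18 (62.1%, against 39.1%), and the median number of CpG dinucleotides was 24, against 14. The E2F motif was in 3 of the 8 windows of genes LAD in a list (37.5%) and in 10 of the 21 of genes outside LADs in every list (47.6%), so it was found on both sides. GATC was in 12 of the 29 windows (41.4%, against 46.4%), in 2 of the 8 and 10 of the 21. A match is a run of letters and not a shown binding site. Gmnn, Mcm4, Gins1, Gins2, Gins4, Mtbp, Recql4, Prim2, Pole, Rfc2 and Tipin have no window in the table.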

How the data were processed

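The 12 samples are DamID libraries in 4 groups of 3 replicates, and each deposited file is 1 list of LADs made by the authors from all replicates of a group, per the series' design text. The deposited lists give starts and ends on a 100-kb grid on chromosomes 1 to 19, and the deposited score field is 0 in every row and was not used. Per the submitters' processing notes, the build was mm10 (GRCm38) and the tools included Bowtie2, Picard, SAMtools and Trimmomatic. How LADs were called, with which threshold, is not given in the sources used here. Read depth is unknown, so no counting interval can be given.

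Genes came from RefSeq on GRCm38.p6, and all 40 symbols matched. Of 47042 autosomal entries, 333 with scaffold coordinates were left out, which leaves 20558 protein-coding genes as background. A gene was LAD when its midpoint lay in an interval. Local coverage is the percent in LADs of the 1 Mb centred on the midpoint. For 635 of the 20558 genes, this window ran past the first or last LAD of the chromosome. No test was run, since a group is 1 pooled list. The members, their roles, the second list of 40 replication genes and the alternatives were chosen with earlier results of these data known.

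Named in full are members LAD in any list. Of the other members, the 5 nearest to and the 3 farthest from a LAD are named, together with some whose values were seen first. In the second list, genes that differ between siRif1 and siControl are named. Promoters are printed for members that differ between siRif1 and siControl, at most 6, longest stretch of difference first. Interval functions were tested on simulated lists. Computations used Python 3.11.15, numpy 2.4.6 and pandas 2.3.3.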

Additional observations from a re-analysis of the deposited data

Results flagged for a closer look

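At 6 of the 40 genes (15.0%, against 15.9% of all protein-coding genes), local LAD coverage in siRif1 minus siControl embryos had opposite signs at the 2 stages. Mcm5 had -60.0 percentage points at the 8-cell stage and 68.1 at the 4-cell stage, and it was the only member whose LAD state also differed in opposite directions, as it did for 2.20% of all protein-coding genes. Coverage was likewise lower in siRif1 at the 8-cell and higher at the 4-cell stage at Mcm4 (-36.9 and 100 points), Mcm6 (-10.0 and 10.0 points, 1 grid step each way) and Gins4 (-3.2 and 33.2 points). It was higher in siRif1 at the 8-cell and lower at the 4-cell stage at Orc4 (22.8 and -40.0 points) and Cdc7 (12.6 and -100 points). None of these differences between the stages was tested, because each group is 1 pooled list.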

How the results depend on the processing

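Under 6 alternatives (placing a gene by its 5′ end, by any base or by the whole gene, keeping LADs from 300 kb up, joining LADs less than or exactly 200 kb apart, and trimming 100 kb off both borders), each of the 12 counts of members in a list or in a comparison stayed within 1.5 times its value. That limit is wide for counts this small, and several counts moved by 1 gene. Members LAD in siRif1 and not in siControl 4-cell embryos went from 2 to 3 by the 5′ end. Of 160 calls of a member in a list, 0 differed with whole genes, with longer LADs or with bridged gaps, 1 by the 5′ end, 2 by any base and 4 with trimmed LADs. The 300-kb floor could not move a call, since the shortest LAD holding a member was 0.7 Mb. Bridging had little to move, since the share of all protein-coding genes in siRif1 8-cell LADs was 23.8% with and without it. Cdc45 was LAD in siRif1 4-cell embryos by its 5′ end or by any base, Mtbp was LAD in siControl 8-cell embryos by any base, and trimming left Mcm8 outside all 4 lists and Mtbp outside the siRif1 4-cell list. For members with no known start, the 5′ end was settled where both ends of the gene had 1 state. The call that it did not settle, that of Mtbp in siControl 8-cell embryos, kept the midpoint. No paired analysis was possible because each group is 1 list pooled over its replicates, and for the same reason leaving out a replicate was not run. Read depth, and with it the smallest contact that could be called, is unknown.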
